A study of Rattus norvegicus with 24 samples.

Results

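Monuron, 3-(4-chlorophenyl)-1,1-dimethylurea, is a herbicide of the phenylurea class, which stops photosynthesis in plants, and the study's design lists it among carcinogens. The 4 arrays described here were chosen by their compound label from 24 arrays of 6 compounds. Each array carried liver RNA of 1 male F344 rat, an inbred strain, 5 weeks old per the labels, that had received 250 mg/kg/day of monuron in corn oil by gavage for 28 days at 5 ml per kg. The control on each array was RNA pooled from 4 control rats, per the design, so the control counts as 1 sample, and no test against it holds the spread among vehicle rats. The other 5 compounds, each in 4 rats of the same strain, sex and age, were hexachloroethane (500 mg/kg/day), 1,2,3-trichloropropane (50), 1-amino-2-methylanthraquinone (150) and 1,2-dichlorobenzene (300), all in corn oil, and tetracycline hydrochloride (1000) in water. The design lists 1,2-dichlorobenzene and tetracycline hydrochloride as non-carcinogens and the others as carcinogens, and the labels call the 4 rats of a compound biological replicates.

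The liver meets foreign compounds with sensors that switch on enzymes and transporters. The aryl hydrocarbon receptor (AhR) is bound by flat aromatic molecules and drives Cyp1a genes. The nuclear receptors CAR and PXR drive Cyp2b, Cyp2c and Cyp3a enzymes, glucuronosyltransferases and efflux pumps, and Nrf2 is released by electrophiles and oxidants and drives glutathione and reductase genes. Liver also makes cholesterol, glucose and plasma proteins, and houses Kupffer cells, the resident macrophages that take up aged red cells.

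Values are log2 ratios of treated over vehicle, where 1 is a doubling, and a gene was called at a limma adjusted p under 0.05 (Benjamini-Hochberg over all 11497 genes tested) together with a change of at least 2-fold. Treated RNA carried Cy3 and vehicle RNA Cy5 on every array, so a dye effect and a treatment effect cannot be told apart in a value against vehicle, while in a comparison with another compound a dye effect common to both cancels. Every compound had its own slide, and for monuron too the slide's effect and the compound's cannot be told apart. It shared its scan day with 1,2-dichlorobenzene alone, which makes that comparison the value within a day. On the monuron arrays the treated RNA gave a signal well above background at 59.8 to 63.8% of the probes, and the vehicle RNA at 64.2 to 67.7%. The mean correlation of a rat's log ratios with those of the other 3 monuron rats was 0.79, 0.84, 0.86 and 0.83 for rats 1 to 4, across genes. The 7 hepatocyte markers, among them Alb, Ttr and Apoa1, were well above background in both channels on all 4 arrays.

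Against vehicle, 85 genes were higher, which is 0.739% of those tested, and 76 were lower, which is 0.661%. By adjusted p alone, 2291 genes (19.9%) were higher and 3005 (26.1%) lower. With each array centred on its median in place of the loess scaling, the median of all genes moved from -0.02 to -0.26 and the split of called genes from 85 higher and 76 lower to 47 higher and 424 lower. The 30 genes with the largest changes all kept their call under that scaling. In whole tissue, fewer cells of a type and less RNA per cell cannot be told apart. The spread between rats was a median SD of 0.21 over the called genes and 0.08 over all genes.

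The largest rise was in Gsta3, an alpha-class glutathione transferase that detoxifies electrophiles. Its 4 rats read 5.24, 5.20, 5.22 and 5.34, a mean of 5.25 ± 0.06 (SD, n = 4) with an adjusted p of 1.51e-11. The rats were nearly alike, but 2 other Gsta3 probes read 3.48 and 3.53, and alpha-class genes are close enough in sequence that signal may be shared among them. Acsm5, a medium-chain acyl-CoA synthetase of mitochondria, read 3.63, 2.97, 3.38 and 3.85, a mean of 3.46 ± 0.37 (adjusted p = 2.91e-07). Its relative Acsm2 rose by 2.16 ± 0.21. Grin2c, a subunit of the NMDA glutamate receptor known from brain, read 3.26, 3.41, 3.33 and 3.21 (mean 3.30 ± 0.08, adjusted p = 6.74e-12), and its rats were nearly alike. Samd7, known from photoreceptors, rose by 2.46 ± 0.22 and the fatty acid transporter Cd36 by 2.52 ± 0.11. The flavin monooxygenase Fmo5 rose by 2.04 ± 0.16, and the probe named Abcb1, for a drug efflux pump, by 2.01 ± 0.05, with its 2 other probes at 0.79 and 1.95.

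**Figure D1:**
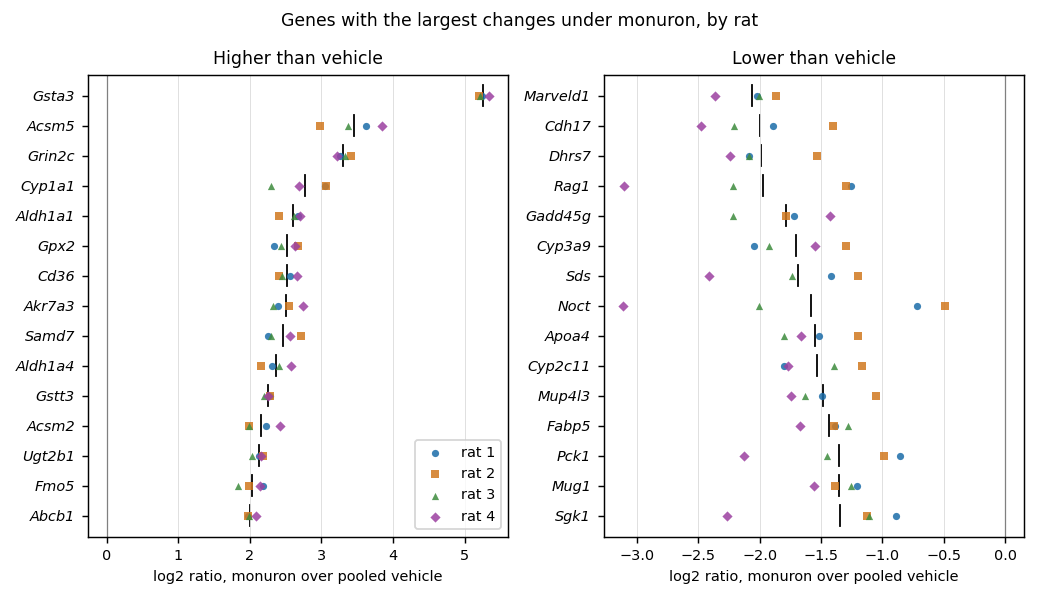
Log2 ratio of monuron over pooled vehicle (x axis) for the 15 named genes with the largest rise (left) and the 15 with the largest fall (right). Each symbol is 1 rat and each black bar the mean of 4 rats; the rats lie close together for rising genes such as Gsta3 (SD 0.06), while rat 4 is the lowest for Noct (-3.11), Rag1 (-3.11) and Pck1 (-2.13).

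The antioxidant response element, the DNA site known to be bound by Nrf2, has the core TGACNNNGC, and the xenobiotic response element, known to be bound by AhR, has the core GCGTG. Both were searched on both strands in RefSeq promoters of assembly GRCr8, 250 bases before to 50 after each gene's start. 3 promoters of called genes with a match are printed, with the match in capitals.
Gsta3, chr9:31154739-31155038, plus strand: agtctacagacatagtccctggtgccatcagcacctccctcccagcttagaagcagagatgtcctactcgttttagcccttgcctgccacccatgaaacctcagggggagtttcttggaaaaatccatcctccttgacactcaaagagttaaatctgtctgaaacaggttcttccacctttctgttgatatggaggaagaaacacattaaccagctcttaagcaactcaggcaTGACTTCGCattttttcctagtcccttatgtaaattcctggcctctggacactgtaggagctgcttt
Gpx2, chr6:101229984-101230283, minus strand: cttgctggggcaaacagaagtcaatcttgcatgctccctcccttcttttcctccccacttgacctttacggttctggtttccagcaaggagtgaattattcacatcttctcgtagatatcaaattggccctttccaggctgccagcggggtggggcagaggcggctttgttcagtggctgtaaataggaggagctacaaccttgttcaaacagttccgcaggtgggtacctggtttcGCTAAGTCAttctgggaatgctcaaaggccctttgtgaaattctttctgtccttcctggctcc
Nqo1, chr19:52220218-52220517, minus strand: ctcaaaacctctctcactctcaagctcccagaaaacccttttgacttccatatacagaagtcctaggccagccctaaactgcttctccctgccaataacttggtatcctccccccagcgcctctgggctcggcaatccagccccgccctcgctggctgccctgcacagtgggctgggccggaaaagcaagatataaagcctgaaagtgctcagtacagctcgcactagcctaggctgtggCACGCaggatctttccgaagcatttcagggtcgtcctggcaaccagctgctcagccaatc
The antioxidant core began at position -17 in Gsta3 and at -13 in Gpx2, counted from the start of the gene, and the xenobiotic core at -10 in Nqo1. The matches in Gpx2 and Nqo1 read on the opposite strand. Gsta3 was listed here as an AhR target, not among the Nrf2 targets, and its window held no xenobiotic core. The antioxidant core lay in 5 of the 18 tested Nrf2 targets with a promoter entry and in 12.2% of all 27457 promoters. The xenobiotic core lay in 3 of 6 AhR targets and in 31.1% of all promoters. Among other called targets with a promoter entry, Aldh1a1 and Akr7a3 held no antioxidant core and Cyp1a2 no xenobiotic core. Nqo1 is on both lists and held no antioxidant core. The matches in Abcc2, Gclm, Me1, Ugdh, Gsta2 and Ugt1a6 lay in targets that were not called. A match describes letters in this window and not a bound site.

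Of 8 AhR targets measured, 4 were called higher (Gsta3, Cyp1a1, Nqo1 and Cyp1a2), against 0.739% of all genes, and 0 lower. The median of the 8 was 1.17 against -0.02 over all genes. This list and the other lists used here were chosen with earlier results of these data known. Their counts describe the members and do not test a group. Cyp1a1, the classic AhR target that oxidises aromatic hydrocarbons, read 3.05, 3.06, 2.29 and 2.68 (mean 2.77 ± 0.37, adjusted p = 7.46e-07). Its other probe read 1.81. For the brightest probe the vehicle channel was well above background on 1 of 4 arrays, so the baseline is poorly measured. Cyp1a2, which is abundant in normal liver and oxidises caffeine, read 1.51, 1.57, 1.49 and 1.61 (mean 1.54 ± 0.05, adjusted p = 2.68e-08), with every rat well above 0. The quinone reductase Nqo1, a target of both AhR and Nrf2, read 1.60, 1.72, 1.41 and 1.66. Gsta2 (0.80), Fmo1 (0.68) and Ugt1a6 (0.55) passed the adjusted p without reaching 2-fold, and Aldh3a1, another classic target, was at -0.06 (adjusted p = 0.715). With median centring the group's median was 0.37, with 3 members called higher.

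Of 22 Nrf2 targets, 5 were called higher, against 0.739% of all genes, and 0 lower. By adjusted p alone 16 were higher and 3 lower, against 19.9% and 26.1% of all genes. Aldh1a1, a retinaldehyde dehydrogenase, rose by 2.60 ± 0.14, the peroxidase Gpx2 by 2.52 ± 0.16 (its other probe read 0.28), the aldehyde reductase Akr7a3 by 2.50 ± 0.19, Nqo1 by 1.60 ± 0.13 and the efflux pump Abcc3 by 1.15 ± 0.11. The glutathione synthesis genes Gclc (0.41) and Gclm (0.63), the reductase Gsr (0.65) and the epoxide hydrolase Ephx1 (0.93) passed the adjusted p below 2-fold. Srxn1, a sulfiredoxin often used as an Nrf2 reporter, was at 0.19 (adjusted p = 0.115). The median of the group was 0.64 with loess and -0.01 with median centring, where 4 members were called higher and 2 lower.

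Among 22 CAR and PXR targets, 6 were called higher and 1 lower, against 0.739% and 0.661% of all genes. Their median of 0.53 became -0.14 with median centring (3 called higher, 3 lower). The aldehyde dehydrogenases Aldh1a1 and Aldh1a4 led, the second at 2.36 ± 0.18, and were followed by the glucuronosyltransferase Ugt2b1 at 2.12 ± 0.07. The 2 other probes of Aldh1a4 read 1.33 and 2.35. Cyp2c6v1 rose by 1.29 ± 0.14, Ces2c by 1.17 ± 0.14 and Abcc3 by 1.15 ± 0.11. Cyp2b15 was at 0.59, Cyp3a2 at 0.53 and Cyp3a23-3a1 at 0.33. Cyp3a9, a steroid hydroxylase of the same subfamily, went the other way at -2.05, -1.29, -1.93 and -1.55 (mean -1.70 ± 0.35, adjusted p = 8.58e-06). Cyp2b1 and Cyp2b2, the classic CAR targets, were not among the genes tested.

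**Figure D2:**
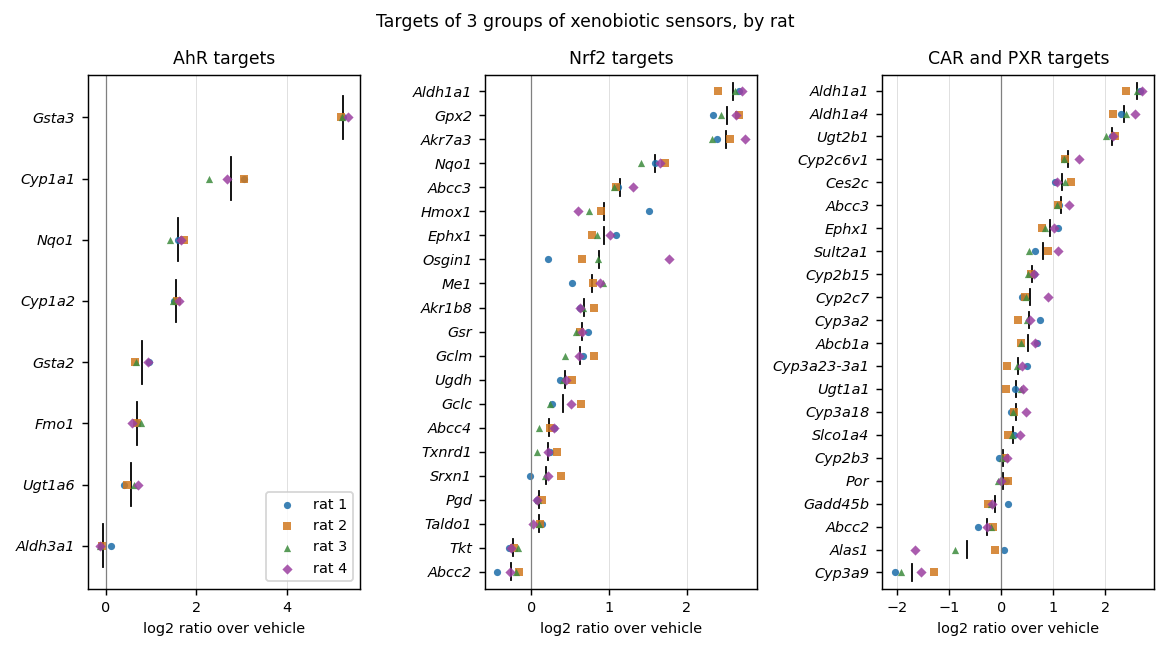
Log2 ratio of monuron over pooled vehicle (x axis) for AhR, Nrf2, and CAR and PXR targets; symbols are the 4 rats and bars their means. Gsta3 (5.25), Cyp1a1 (2.77), Aldh1a1 (2.60) and Gpx2 (2.52) lie farthest to the right, and Cyp3a9 (-1.70) is the one called lower. Rat 4 is the lowest for Alas1 (-1.66) and the highest for Osgin1 (1.77).

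Conjugating enzymes differed member by member. Of 15 glutathione transferases 2 were called, Gsta3 and the theta-class Gstt3 (2.25 ± 0.04), and the group's median was 0.32 with loess and -0.26 with median centring. Gstp1, which marks preneoplastic foci in rat liver, read 0.50, 0.42, 0.23 and 0.26 (mean 0.35 ± 0.13, adjusted p = 0.052), so no rat came near a doubling. Ugt2b1 and Ugt2a1 (1.18 ± 0.15, with its other probe at 0.60) were the called members of 9 glucuronosyltransferase genes. Median centring left 1 of the 9 called, and their median was -0.11 against 0.44 with loess. Sult2a2 (1.53 ± 0.28) and Sult2a6 (1.44 ± 0.19), hydroxysteroid sulfotransferases of near-identical sequence, were the called members of 11 sulfotransferase genes. Of these 11, 4 were lower by adjusted p alone, as were 26.1% of all genes. Papss2 (-0.80), which makes the sulfate donor, was among the 4. Under median centring 1 of the 11 was called higher and 4 lower, and their median was -0.72 against -0.16 with loess.

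Genes of cholesterol synthesis rose together with loess scaling, while with median centring 10 were higher and 4 lower by adjusted p. Of 19 members 7 were called higher, against 0.739% of all genes, and 0 lower. By adjusted p alone 18 were higher, against 19.9% of all genes, with Insig1 as the exception. Hmgcs1, which makes HMG-CoA, read 2.28, 1.34, 1.10 and 1.64 (mean 1.59 ± 0.51, adjusted p = 1.83e-07). Idi1, the isomerase of isopentenyl diphosphate, read 2.32, 1.58, 1.46 and 1.82 (mean 1.79 ± 0.38). Msmo1, a sterol demethylation enzyme, rose by 1.51 ± 0.44 and the squalene epoxidase Sqle by 1.40 ± 0.46. Cyp51 (1.13), Fdft1 (1.12) and Fdps (1.06) completed the called genes, and the 2 other probes of Fdft1 read 0.05 and 1.11. Insig1, which holds back the sterol sensor, read 0.03, -0.30, -0.44 and -1.53 (adjusted p = 0.236).

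Rat 1 was the highest of the 4 for all 19 members. Without rat 1, 6 members were called higher and the median went from 0.89 to 0.75. With median centring the median was 0.35, with 1 member called higher and 1 lower. Against the mean of the other 5 compounds 6 members were called higher with loess and 6 with median centring, with medians of 0.76 and 0.76. The sterol response element TCACNCCAC was in 0 of the 14 members' promoters and in 1.13% of all promoters of that length.

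**Figure D3:**
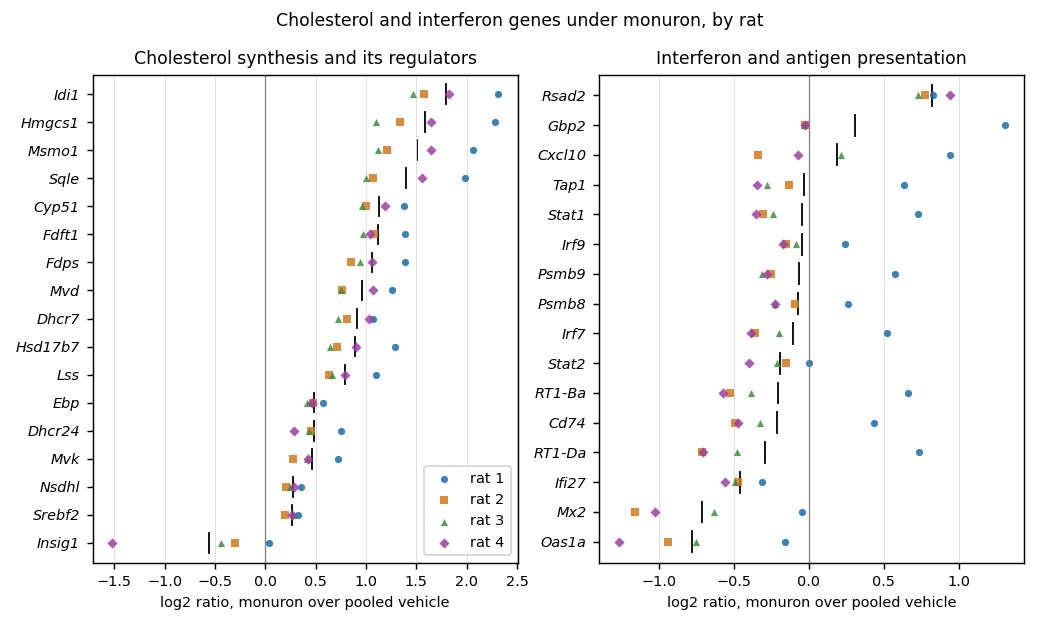
Log2 ratio of monuron over pooled vehicle (x axis) for genes of cholesterol synthesis with their regulators (left) and of interferon and antigen presentation (right), symbols for the 4 rats and bars for their means. Rat 1 is the highest for each cholesterol gene drawn and for 15 of 16 interferon genes, and stands alone for Gbp2 (1.31 against -0.03, -0.04 and -0.03).

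Red cell genes rose with loess scaling, while with median centring 0 of the 4 erythroid markers were called and 3 were higher by adjusted p. Hbb, the beta chain of haemoglobin, read 1.65, 1.58, 1.40 and 1.93 (mean 1.64 ± 0.22, adjusted p = 9.51e-08), Alas2, the haem synthesis enzyme of red cell precursors, read 1.11, 1.12, 1.02 and 1.27, and Ahsp, the chaperone of alpha globin, 1.02, 1.02, 0.88 and 1.30. Rat 4 was highest and rat 3 lowest for each of these. Without rat 4, Ahsp was at 0.97, under the 2-fold limit. The blood group gene Rhd rose by 1.18 ± 0.22, with its other probe at 0.60. The carbonic anhydrase Car2, abundant in red cells, was at 1.31 ± 0.18 under monuron but at 1.82 ± 0.51 under 1,2-dichlorobenzene, where Hbb was at -0.07 ± 0.45. Hba-a1, an alpha globin gene, was at -0.24 ± 0.03 by its brightest probe, while its 2 other probes read 1.13 and 1.34, so its probes disagree in direction. Of the 4 erythroid markers tested 3 were called higher, and the median was 1.09. Of 6 lymphocyte markers 0 were called and 2 were lower by adjusted p alone, as were 26.1% of all genes. The 1 neutrophil marker tested was not called. Epb42, a red cell membrane gene, was on the array and did not pass the filter on dim probes. Whether the blood left in the tissue, red cell precursors or both moved with these values was not tested. With median centring the erythroid median was 0.74.

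Marco, a scavenger receptor of macrophages, rose as well, reading 1.71, 1.03, 0.68 and 0.86 (mean 1.07 ± 0.45, adjusted p = 0.000308). Without rat 1 it was at 0.86, below 2-fold. Marco was the only called gene of 7 Kupffer cell markers, whose median was 0.73 in rat 1, 0.27 in rat 2, 0.13 in rat 3 and 0.09 in rat 4. Over the rats the median was -0.22 with median centring, where 0 of the 7 were called. The haptoglobin-haemoglobin receptor Cd163 read 0.61, 0.36, 0.13 and 0.12, with rat 1 highest here too. Haem oxygenase Hmox1, which breaks down haem and is also an Nrf2 target, read 1.52, 0.90, 0.75 and 0.60 (mean 0.94 ± 0.40, adjusted p = 1.27e-05), again with rat 1 highest, and passed 2-fold without rat 3 (1.01) or rat 4 (1.05). Other steps of haem synthesis moved less, with Alad at 0.29 and Fech at 0.26. Alas1, the haem synthesis enzyme of hepatocytes, read 0.06, -0.12, -0.88 and -1.66 (adjusted p = 0.0511), so the rats did not share a change.

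**Figure D4:**
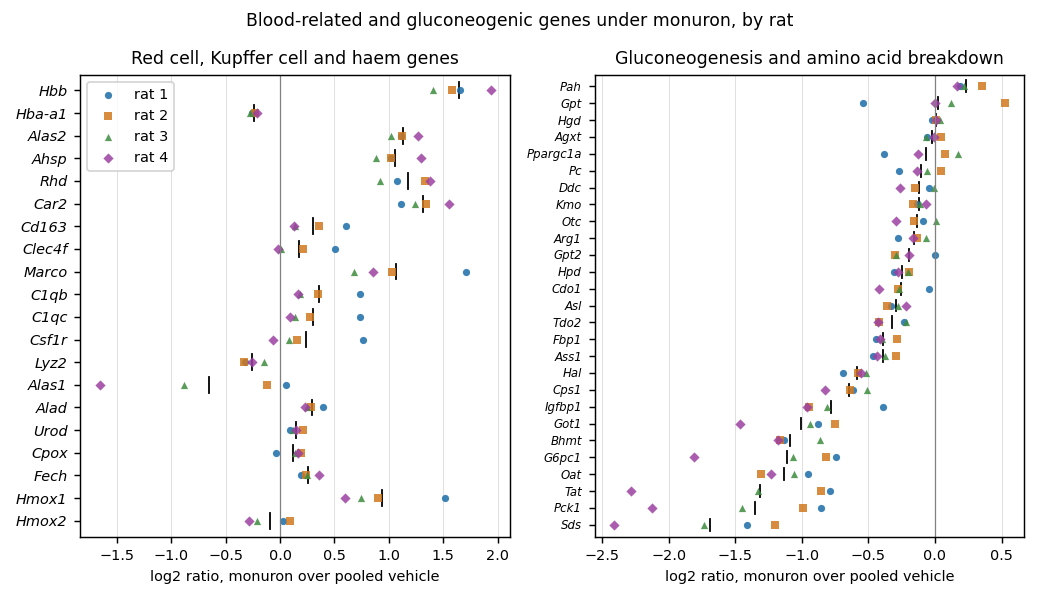
Log2 ratio of monuron over pooled vehicle (x axis) for red cell, Kupffer cell and haem genes (left) and for genes of gluconeogenesis and amino acid breakdown (right), symbols for the 4 rats and bars for their means. Hbb, Alas2 and Ahsp lie above 0 in every rat (lowest 0.88, Ahsp in rat 3), rat 1 is highest for Marco and Hmox1, and rat 4 is lowest for Sds (-2.41), Pck1 (-2.13) and Tat (-2.28).

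Genes of gluconeogenesis and amino acid breakdown were lower, with 7 of 27 called lower, against 0.661% of all genes, and 0 higher. With median centring 16 were called lower, against 424 of all 11497 genes, and the median was -1.16 against -0.30 with loess. Sds, which deaminates serine, read -1.42, -1.20, -1.73 and -2.41 (mean -1.69 ± 0.53, adjusted p = 0.000145). Pck1, which commits carbon to glucose, read -0.85, -0.99, -1.45 and -2.13 (mean -1.36 ± 0.57; its 2 other probes read -0.76 and -0.75), and the tyrosine aminotransferase Tat -0.79, -0.85, -1.33 and -2.28 (mean -1.31 ± 0.69). Rats 1 and 2 lay above rats 3 and 4 for all 3 genes. Without rat 4, Tat was at -0.99 and the called members fell from 7 to 4. Oat, the ornithine aminotransferase, was at -1.14 ± 0.16 with little spread. The same 27 genes had a median of -0.30 under monuron and of -0.47 to -0.17 under the other 5 compounds, and 0 were called against the mean of those.

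Rats 3 and 4 were also below rats 1 and 2 for Noct, Dusp1 and Rag1. Noct, a gene with a strong daily rhythm, read -0.72, -0.49, -2.01 and -3.11 (mean -1.58 ± 1.22, adjusted p = 0.0155), and lost its call without rat 3 or without rat 4. Dusp1, a phosphatase induced by stress and glucocorticoids, read -0.13, -0.72, -1.83 and -1.71, and likewise fell below 2-fold without rat 3 or rat 4. Rag1, a recombinase of lymphocytes, read -1.26, -1.30, -2.22 and -3.11. For the glucocorticoid-induced kinase Sgk1 only rat 4 stood lower, at -2.27 against -0.89, -1.13 and -1.11.

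Rat 4 was at least 2-fold below the mean of the other 3 rats for 44 genes (0.383%) and at least 2-fold above it for 8. Rat 1 was that far above for 28 genes (0.244%) and below for 3, and rat 2 was above for 6 and below for 3, rat 3 above for 3 and below for 2. Genes with a high value in rat 1 included the interferon-induced GTPase Gbp2 (1.31 against -0.03, -0.04 and -0.03) and the MHC class II gene RT1-Da (0.74 against -0.71, -0.48 and -0.71). Cxcl1, a chemokine, read 1.63 in rat 4 against 0.37, -0.27 and 0.32 in rats 1 to 3. These genes were chosen after their values were seen.

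Genes that differ between the sexes in rat liver moved in both directions. Among 15 genes biased to females 3 were called higher and 1 lower, against 0.739% and 0.661% of all genes. Besides the 2 sulfotransferases, the prolactin receptor Prlr read 1.20, 1.16, 1.24 and 1.55 (mean 1.29 ± 0.18), while Hao2, an oxidase of peroxisomes, was at -1.33 ± 0.16. The median of the group was 0.33 with loess and -0.29 with median centring. Among 17 genes biased to males 3 were called lower and 2 higher, with a median of -0.13, and with median centring 6 were lower and 1 higher, with a median of -0.89. Cyp2c11, the main P450 of adult male rat liver, read -1.80, -1.17, -1.39 and -1.77 (mean -1.53 ± 0.31, adjusted p = 1.6e-07), and the carbonic anhydrase Car3 was at -1.15 ± 0.20, with its 2 other probes at -1.18 and -0.34. Dhrs7 was at -1.99 ± 0.31 by its brightest probe and at 0.09 by its other probe. The 2 that rose were the steroid dehydrogenase Hsd17b2 (1.10 ± 0.14) and Pbsn, a lipocalin known from prostate (1.50 ± 0.50). Cyp2c12, the classic female form, was at 0.33 and Cyp2c13, a male form, at 0.02.

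Among other genes that were lower, Marveld1, a membrane protein, lay between -2.36 (rat 4) and -1.87 (rat 2) in the 4 rats (mean -2.07 ± 0.21, adjusted p = 5.89e-09). Cdh17, a cadherin of liver and intestine, read -1.89, -1.41, -2.21 and -2.48 (adjusted p = 4.37e-05), with rats 3 and 4 lowest, while its other probe read -0.15. The fatty acid binding protein Fabp5 was at -1.43 ± 0.16. Plasma protein genes were lower together, 20 of 24 by adjusted p alone, against 26.1% of all genes. Apoa4 (-1.55), Ambp (-1.08) and Apoc3 (-1.06) were called, against 0.661% of all genes. Other probes read -0.69 for Ambp and -0.47 and -0.44 for Apoc3, and both lost their call with the median of probes. With median centring 21 of 24 were called lower, against 424 of all 11497 genes. Their median was then -1.56 against -0.53 with loess, and the other compounds had loess medians of -0.61 to -0.34. The 7 hepatocyte markers were all lower by adjusted p as well, with a median of -0.65, and with median centring all 7 were called lower with a median of -1.66. Under each of the other 5 compounds these markers had a median between -0.62 and -0.44, and against the mean of those compounds 1 of 7 was lower by adjusted p and 0 were called.

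Monuron was next compared with the mean of the other 5 compounds. Each value is a ratio over a vehicle pool. Tetracycline hydrochloride, 1 of the 5, had water as its vehicle, unlike monuron. Whether the corn oil compounds shared a pool is not given in the sources used here. A difference between compounds and one between pools therefore cannot be told apart. Against the mean of the other 4 corn oil compounds alone, 49 genes were higher and 21 lower. Against the mean of all 5, 47 genes were higher (0.409%) and 23 lower (0.2%), and the counts with median centring were 45 and 16. Acsm5 was 2.36 higher (adjusted p = 0.000382), with means of 1.03, 2.36, 1.13, -0.53 and 1.47 under 1,2-dichlorobenzene, 1-amino-2-methylanthraquinone, 1,2,3-trichloropropane, hexachloroethane and tetracycline hydrochloride. Cd36 was 1.58 higher (adjusted p = 4.59e-05). Hbb was 1.71 higher (adjusted p = 1.82e-06), and its mean was between -0.25 and 0.26 under the other compounds, with SDs there of 0.30 to 0.45. Alas2 was 1.19 and Rhd 1.22 higher. Of the 4 erythroid markers 2 were called higher, and by adjusted p alone 3 were higher and 1 lower. Sqle (1.51), Idi1 (1.42), Hmgcs1 (1.40) and Msmo1 (1.32) were higher as well, and so were Marco (1.34), Hmox1 (1.05) and the lipoxygenase Alox15 (1.01). Without rat 1, Hmox1 was no longer called against the other compounds.

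For other genes the difference lay in part or wholly with some of the other compounds. Inmt, a methyltransferase of small amines, read -0.32, -0.04, -0.11 and -0.50 under monuron, close to vehicle, and was 1.90 higher than the mean of the others, where it stood at -4.69 under 1,2-dichlorobenzene and -2.77 under 1,2,3-trichloropropane, and at -0.05 under tetracycline hydrochloride. The glutamate transporter Slc1a2, found in hepatocytes around the central vein, read 0.83, 0.93, 0.64 and 0.50 and was 1.60 higher than the others. Its other probe read 0.15 against vehicle. Gstp1 differed from the others by log2 -1.02, and its mean was 4.64 under 1,2-dichlorobenzene and 2.14 under 1,2,3-trichloropropane. Under hexachloroethane (-0.28), 1-amino-2-methylanthraquinone (0.35) and tetracycline hydrochloride (0.04) it was about as near vehicle as under monuron. It fell just under 2-fold without rat 3 or rat 4. Metallothionein Mt1, a metal-binding protein, was at -0.34 under monuron and differed from the others by log2 -1.36. Its 2 other probes read -1.26 and -0.33 under monuron. The Mt1 mean was 2.11 under 1,2-dichlorobenzene, 1.99 under 1,2,3-trichloropropane and 1.01 under 1-amino-2-methylanthraquinone. It was 0.85 under tetracycline hydrochloride and -0.87 under hexachloroethane.

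Lower against the others and against vehicle alike were Fabp5 (-1.56 against the others), Marveld1 (-1.39), Cdh17 (-1.20, with the call lost without rat 3 or rat 4), Sugct (-1.08) and Csrp1 (-1.02). Sugct, a CoA transferase of mitochondria, read -1.18, -1.14, -0.89 and -1.12 under monuron, and its mean under the other compounds was between -0.26 and 0.34. Fhit, a dinucleotide hydrolase and tumour suppressor, was not well above background in the treated channel on any of the 4 arrays and was well above it in the vehicle channel on all 4. It was at least 1.92-fold lower than vehicle (adjusted p = 2.24e-11), a limit set against the dimmest signal well above background on each array.

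**Figure D5:**
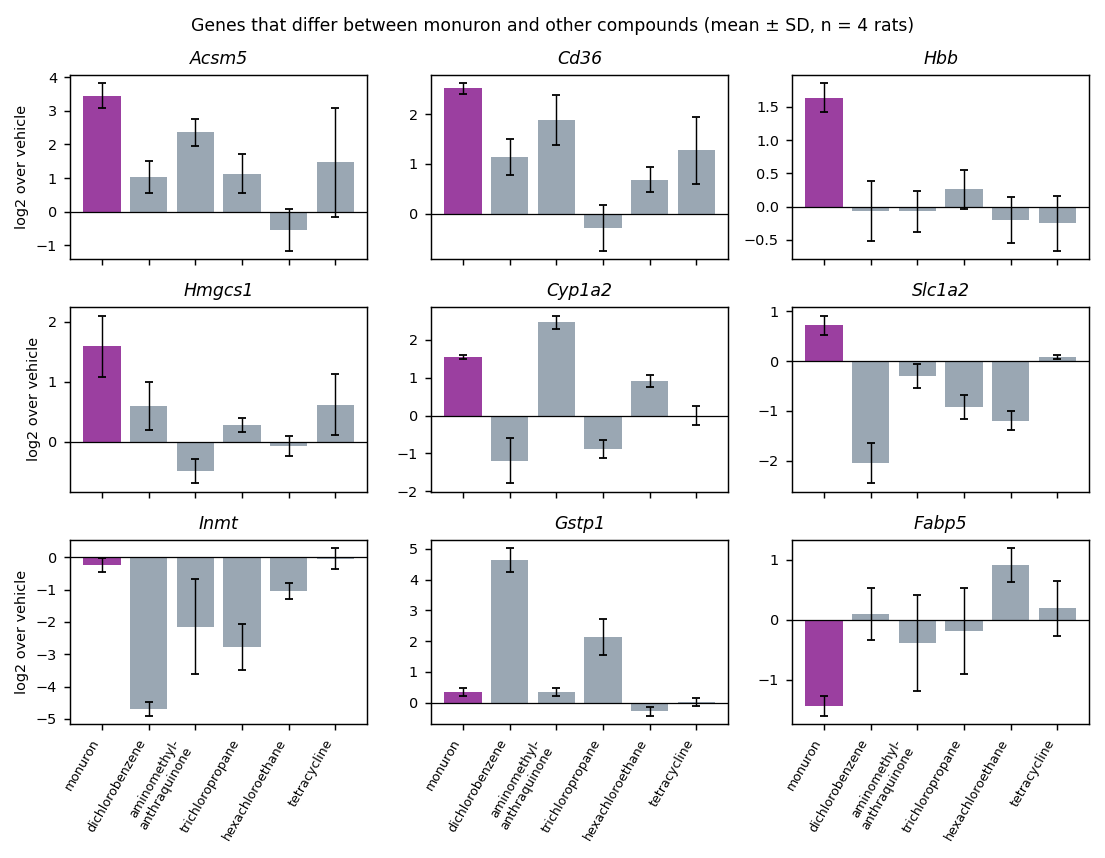
Mean log2 ratio over vehicle (y axis) under each of 6 compounds for 9 genes called between monuron and other compounds; bars are means of 4 rats and error bars 1 SD. Monuron (purple) has the highest bar for Acsm5 (3.46), Cd36 (2.52), Hbb (1.64), Hmgcs1 (1.59) and Slc1a2 (0.72) and the lowest for Fabp5 (-1.43), while Inmt and Gstp1 stay near 0 under it.

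Against 1,2-dichlorobenzene, scanned on the same day, 58 genes were higher (0.504%) and 54 lower (0.47%). Of the 4 erythroid markers 2 were called higher, Hbb by 1.71 (adjusted p = 1.71e-05) and Alas2 by 1.30. By adjusted p alone 3 were higher. Rhd was 1.22 higher, while Car2 had a lower mean than under 1,2-dichlorobenzene. Idi1 (1.64), Sqle (1.57), Cyp51 (1.31) and Marco (1.74) were also higher. Cyp1a2 was 2.74 higher (adjusted p = 6.41e-09), as it stood at -1.19 ± 0.59 under 1,2-dichlorobenzene. Of 15 genes of hepatocytes around the central vein 5 were called higher and 0 lower in this comparison, namely Slc1a2 (2.78), Oat (2.58) and Slc13a3 (1.86), Cyp1a2, and Glul, the glutamine synthetase, at 1.19. Against vehicle the same 15 genes had a median of 0.10 under monuron and of -0.41 under 1,2-dichlorobenzene, where 12 were below 0, and Oat stood at -1.14 and -3.72. Gstp1 differed by log2 -4.28 (adjusted p = 6.05e-12) and Akr7a3 by log2 -1.08. The induced genes Gsta3 (0.27), Aldh1a1 (0.12), Gpx2 (0.12) and Gstt3 (0.17) did not pass the test between these compounds, with standard errors of 0.39, 0.23, 0.18 and 0.17.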

How the data were processed

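Liver RNA was measured on 24 2-colour Agilent arrays, 4 for each of 6 compounds. Spot signals were deposited as intensity values by the Agilent Feature Extraction software, version 9.1.3.1 per the file headers, together with its log10 ratios of red over green. The authors also deposited a table of processed log2 ratios, whose scale and direction were found by setting it against the scanner's ratios and whose normalization and centring are not given in the sources used here. Its monuron columns had medians of 0.01, 0.08, 0.08 and 0.06. Mean signals were background-corrected (normexp, offset 50) and loess-normalized within each array with limma 3.58.1 in R 4.3.3, outlier spots were left out, and the 2 copies of a probe were averaged. Probes were kept (16083 of 21889) where some compound had them detected over background by either dye on each of its 4 arrays. The brightest probe stood for its gene (11497 genes, 4754 with a symbol). Names came from RefSeq: 6185 probes kept their symbol, 1914 matched an older symbol, 903 an accession and 626 a gene ID, 107 kept the array's name, and 12154 had no gene name.

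One limma model with a mean per compound (18 residual degrees of freedom) gave monuron against vehicle, against the mean of the other 5 compounds and against 1,2-dichlorobenzene. With a pooled control, the p-values measure only the spread between treated rats. The model was tested on simulated data. Genes were named from the 15 largest called increases and decreases against vehicle and the 10 largest each way against the other compounds. Both sets took only genes with a settled name that moved the same way in all 4 monuron rats. Up to 4 called members of each list were named too. All members of the AhR, CAR and PXR, glutathione and haem lists and of the cell type lists were open to naming. Any other gene named with a value, such as further members of the lists, was chosen after its values were seen. The members and the 40 lists were chosen with earlier results of these data known. Alternatives changed the normalization, background correction, probe filter, probe summary, source of the ratios, samples in the fit and fold threshold, and left out each rat. A slide block could not be fitted, since each slide held 1 compound. Some members of the lists count in the totals and are not reported here by name.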

Additional observations from a re-analysis of the deposited data

Results flagged for a closer look

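Among 103 genes examined, 7 had 1 monuron rat far from the other 3 by Dixon's test, which sets the gap to the nearest rat against the range of all 4. Chance gives such a gap in about 1 in 20 groups. Rat 4 stood apart for Abcb1 (2.09), Sgk1 (-2.27), Cyp2c6v1 (1.50) and Cyp2c7 (0.91). Rat 3 stood apart for Cidea (0.99), rat 1 for Aldh3a1 (0.12) and rat 2 for Gstm3 (-0.13).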

How the results depend on the processing

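Against vehicle, the 85 higher and 76 lower genes became 47 and 424 when arrays were centred on their medians, 152 and 154 from the scanner's own ratios, 152 and 145 with the authors' deposited ratios, and 2291 and 3005 with no fold threshold; with no background correction 56 were higher. Against the other 5 compounds, the 47 higher and 23 lower genes became 75 and 53 with the scanner's ratios, 77 and 50 with the deposited ratios, and 1271 and 1313 with no fold threshold, and 12 were lower with no background correction. Against 1,2-dichlorobenzene, 58 higher and 54 lower became 107 and 112, 104 and 105, and 1195 and 1553 under the same 3 settings, and 29 were lower with no background correction. The cause of these changes was not tested. Leaving out each rat in turn gave 80 to 89 higher and 64 to 93 lower against vehicle, 41 to 47 and 18 to 20 against the other compounds, and 54 to 68 and 49 to 53 against 1,2-dichlorobenzene. Deviations of same-numbered rats correlated at -0.186 to 0.376, above 0.1 in all 4 pairs with 1,2,3-trichloropropane but not in all pairs with any other compound, so the numbers were not taken to pair the samples. With a replicate block the counts were 47 and 23 against the other compounds and 58 and 53 against 1,2-dichlorobenzene. With the median of a gene's probes 28 of the 30 top named genes kept their call, and Dhrs7 (-0.95) and Pck1 (-0.76) did not. Among genes named by rule and members of the AhR, CAR and PXR, glutathione and haem lists, no called value changed direction. Medians of some lists did change sign with median centring, such as the proteasome subunits (0.32 to -0.36) and the Nrf2 targets (0.64 to -0.01). Dim probes limit Cyp1a1, whose vehicle signal was above background on 1 of 4 arrays, and Fhit, which has only a limit.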

Other observations

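Proteasome subunits, which degrade tagged proteins, were slightly higher, 20 of 20 by adjusted p in limma with 0 past 2-fold and a median of 0.32, but with median centring 19 of 20 were lower and the median was -0.36. Over all genes the median was -0.26 with median centring. Against the mean of the other 5 compounds the proteasome median was 0.11, with 7 of 20 higher by adjusted p, against 1271 of all 11497 genes. Among 13 p53 targets, Fas, a death receptor, was called higher at 1.27 ± 0.12 and Ccng1, a cyclin, was at 0.77 ± 0.04, while Cdkn1a, the cell cycle inhibitor, was at -0.35 ± 0.12 (limma adjusted p = 0.071). By adjusted p alone 7 were higher and 2 lower, against 19.9% and 26.1% of all genes. Median centring left 0 of the 13 called, with 2 higher and 4 lower by adjusted p. The p53 median was then -0.14 against 0.22 with loess.

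The 4 rats differed in markers of non-parenchymal cells. Rat 2 was the lowest for 10 of 11 stellate cell markers and rat 4 the highest for 9. Rat 1 was the highest and rat 4 the lowest for 5 of 5 endothelial markers.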
